A study of Mus musculus with 16 samples.

Results

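The 28 genes described here make, control or move cholesterol in mouse bone marrow derived mast cells (BMMCs), a culture of mast cells raised from marrow progenitors. They were chosen by name, with earlier results of these data known. They are the rows of the count tables whose Ensembl identifier carries 1 of 28 gene symbols on GRCm38. All 28 were found among the 39179 genes of the tables. They comprise 7 enzymes of the mevalonate and isoprenoid steps, 3 that make squalene and lanosterol, 8 that turn lanosterol into cholesterol, 5 genes of the SREBP control system and 5 genes of sterol transport. The list holds no lipoprotein receptor, so that cholesterol uptake is represented only by Npc1 and Npc2, which pass cholesterol taken up by the cell out of the lysosome.

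RNA was sequenced from 16 BMMC samples in 8 conditions with 2 replicates each. The donors were C57BL/6 males, 8 to 10 weeks old, that were PEP+/+ or PEP-/-, and their cells were kept for 4 weeks in a medium with stem cell factor and IL3. PEP is the PEST-domain-enriched tyrosine phosphatase encoded by Ptpn22. Every sample received IgE for 3 h, by the labels at 0.05 µg/ml and by the study's methods at a higher dose, which sensitizes the cells by occupying their high-affinity IgE receptor, so that there is no sample without IgE. Sensitized cells received no further agent (IgE), dinitrophenol (DNP) at 200 ng/ml for 1 h as the antigen that activates them (IgE DNP), the glucocorticoid dexamethasone (DEX) at 100 nM for 8 h (IgE DEX), or all 3 agents (IgE DNP DEX). DNP is therefore a response within 1 h, whereas DEX had 8 h to act. The labels do not name the vehicle of the cells without DEX or the number of mice behind a sample. In the labels 1 sample per condition carries a number (1 to 8) and its fellow a letter (A to H), and these are called the numbered and the lettered series.

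Cholesterol is built from acetyl-CoA through mevalonate, farnesyl diphosphate, squalene and lanosterol, and the isoprenoids made on the way also modify proteins. When sterols in the endoplasmic reticulum are low, Scap carries the precursor of a SREBP to the Golgi apparatus, where it is cleaved into a transcription factor that raises most genes of the pathway. When sterols are high, the Insig proteins hold Scap and the SREBP back, while oxidised sterols act through liver X receptors to raise the exporters Abca1 and Abcg1. Mast cells use cholesterol in the membrane domains in which the IgE receptor signals.

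The sequence before the start of 4 of these genes is shown because the results below turn on them: Hmgcs1 and Cyp51, which rose with DNP once the series was taken into account, Lss, which fell with DNP in that test, and Abca1, which rose with DEX. The sequences are from RefSeq on GRCm38.p6, in the direction of the gene, with bases that lie in an annotated exon left out. Capitals mark the letters of the sterol regulatory element core (TCACNCCAC), the CCAAT box (CCAAT), the GC box (GGGCGG) and the E-box (CACGTG), read on both strands. The stretch of Hmgcs1 lies at chr13:119690101-119690350, plus strand, that of Cyp51 at chr5:4104747-4104947, minus strand, that of Lss at chr10:76531355-76531587, plus strand, and that of Abca1 at chr4:53159896-53160145, minus strand.
Hmgcs1: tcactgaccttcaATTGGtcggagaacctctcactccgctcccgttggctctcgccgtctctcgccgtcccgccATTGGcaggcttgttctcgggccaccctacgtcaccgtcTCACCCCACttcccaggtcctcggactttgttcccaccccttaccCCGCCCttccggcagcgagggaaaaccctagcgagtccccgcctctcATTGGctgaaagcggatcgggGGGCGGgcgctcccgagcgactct
Cyp51: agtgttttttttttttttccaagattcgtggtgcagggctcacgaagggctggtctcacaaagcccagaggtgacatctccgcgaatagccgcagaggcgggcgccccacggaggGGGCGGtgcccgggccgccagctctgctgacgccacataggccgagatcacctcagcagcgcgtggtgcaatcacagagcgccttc
Lss: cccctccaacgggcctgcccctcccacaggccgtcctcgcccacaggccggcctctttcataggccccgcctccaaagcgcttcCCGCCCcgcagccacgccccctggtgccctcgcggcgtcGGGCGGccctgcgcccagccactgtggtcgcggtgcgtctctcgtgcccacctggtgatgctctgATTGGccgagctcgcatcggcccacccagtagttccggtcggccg
Abca1: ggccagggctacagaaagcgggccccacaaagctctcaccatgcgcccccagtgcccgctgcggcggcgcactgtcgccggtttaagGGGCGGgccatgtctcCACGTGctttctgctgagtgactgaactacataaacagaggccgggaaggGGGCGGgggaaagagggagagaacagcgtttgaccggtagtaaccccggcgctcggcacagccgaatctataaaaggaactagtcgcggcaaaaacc

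Of the 28 genes, 22 had a window of 250 bases before a start in the RefSeq table. The sterol regulatory element core lay in 1 of these 22, Hmgcs1, where it begins 137 bases before the start, against 1.22% of all genes with a window. The CCAAT box lay in 19 of the 22 against 37.5% of all genes, and the GC box in 21 of the 22 against 35.4%. The E-box lay in 6 of the 22 against 6.86%. The palindromic glucocorticoid response element and the direct-repeat-4 liver X receptor element lay in 0 of the 22, against 0.0333% and 0.0148% of all genes. With shares this low, a count of 0 was likely for any 22 genes. That count therefore cannot show that Abca1 or another member lacks such an element. A match is a run of letters in a window and not a measured site, and each motif was counted on its own. The counts use the full 250 bases, exon bases included. The CCAAT box of Cyp51 begins 29 bases before the start and so is not in the stretch shown.

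Each sample held between 8612531 and 22143526 counts (median 12814043.5). Ptpn22 had 130 to 2799 counts in the PEP+/+ samples and 0 to 55 in the PEP-/- samples. Tsc22d3, a glucocorticoid target, was at 43.9 to 135 CPM (read counts scaled to a common library size) in samples without DEX and at 725 to 1277 CPM in samples with DEX, and Il13, a cytokine of activated mast cells, was at 0.294 to 5.14 CPM without DNP and at 11.3 to 701 CPM with DNP. The 8 mast cell markers summed to between 63070 and 103600 CPM in every sample. The 10 macrophage and monocyte markers summed to 5.51 to 14.6 CPM, with C1qa at 0 and Lyz2 and Adgre1 above 0 in all 16 samples. The neutrophil markers summed to at most 0.469 CPM. The 3 basophil markers summed to 539 to 882 CPM without DEX and 228 to 478.7 CPM with DEX, most of it Cd200r3. By treatment they were at 539 to 623 CPM after IgE, 749.9 to 882 CPM after IgE DNP, 228 to 393 CPM after IgE DEX and 431 to 478.7 CPM after IgE DNP DEX, so that they moved with DNP and with DEX. The 3 erythroid markers summed to 0.11 to 0.72 CPM without DEX and 0.407 to 6.38 CPM with DEX. The part of these markers in the DNP and DEX results was not tested.

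The series stood apart in these genes. The 18 enzymes of synthesis were lower in the lettered than in the numbered series in all 8 conditions for 14 genes, as were 18 of the 28 genes, against 20.4% of the 13305 genes tested. By contrast only Scap was higher in all 8 conditions in the lettered series, against 17.8% of all genes. The mean difference was -1.36 on the log2 scale for Idi1, -1.32 for Stard4 and for Hsd17b7, -1.18 for Hmgcs1 and 0.29 for Scap. The reads that fell in no gene were 6.34 to 10.5% of the uniquely aligned reads in the numbered series and 11.8 to 15.996% in the lettered series, and the part of this in the differences between series was not tested. Strand matters for 8 of the 28 genes, Hmgcs1, Idi1, Fdft1, Lss, Cyp51, Scap, Srebf1 and Npc1, which overlap an exon of a gene on the other strand, and the strand setting of the count is not given in the sources used here. Idi1 also has near-identical stretches in Gm13502 and Gm35570. The main test was edgeR's quasi-likelihood test, with a call at a Benjamini-Hochberg adjusted p under 0.05 over the 13305 genes tested. It carries no term for the series, although samples of the same series deviated together from their condition means (correlation 0.453 to 0.799 over 28 pairs of conditions). The same test with the series as a block is therefore given beside the counts, and it called many more of these genes. The labels call the samples replicates without saying whether they came from separate mice, so the p-values measure only the spread between these samples. In bulk samples, fewer cells of a type and less RNA per cell cannot be told apart.

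All 28 genes passed the filter on low counts. Per length, the lysosomal sterol carrier Npc2 was highest, at a mean of 112 CPM per kb of exon over the 16 samples, which was the 96.8th percentile of the genes tested. Hmgcs1, which makes HMG-CoA from acetyl-CoA units, followed at 79.2 CPM per kb, Idi1, the isopentenyl diphosphate isomerase, at 68.5 and Cyp51, the lanosterol demethylase, at 56.4. The regulators Srebf2 and Insig1 were at 46.2 and 39.9 CPM per kb, above Srebf1 at 23.9. At the low end stood the exporters Abca1 at 1.13 and Abcg1 at 2.00 CPM per kb, the sterol reductase Tm7sf2 at 2.63 and the ketosterol reductase Hsd17b7 at 3.11. Thus every step from acetyl-CoA to cholesterol that the list covers was read in BMMCs, whereas the exporters were scarce.

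DEX lowered enzymes from the mevalonate kinases to the last step of cholesterol synthesis and raised Abca1 and Npc1. In sensitized cells (IgE DEX against IgE, 4 samples against 4) 10 of the 28 genes passed the test, 8 of them lower and 2 higher, against 9.37% of all genes tested, 3.98% lower and 5.4% higher. With the series as a block 24 passed, 22 lower and 2 higher, against 26.7% of all genes, 13.8% lower and 12.9% higher. Of the 18 enzymes, 6 fell in the main test and 17 with the block, and all 4 differences within a genotype and series were below 0 for 17 of the 18, against 25.3% of all genes. The median log2 fold change of the enzymes was -0.89, against 0.00 over all genes tested.

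**Figure D1:**
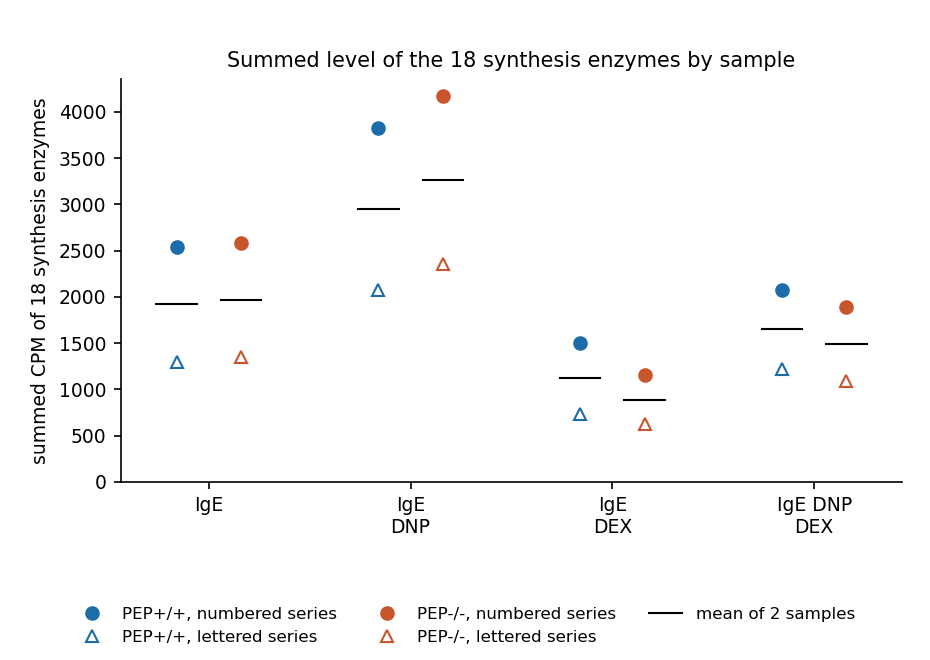
Summed CPM of the 18 synthesis enzymes (y axis) in each of the 16 samples by treatment (x axis); blue is PEP+/+, orange PEP-/-, filled circles the numbered and open triangles the lettered series, and bars the mean of 2 samples. The sum is between 1301 and 2581 CPM after IgE, 2077 and 4177 after IgE DNP, 626 and 1501 after IgE DEX and 1086 and 2079 after IgE DNP DEX, and in each condition the lettered sample is the lower.

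The plot of the summed enzymes shows the size of the shift. In the numbered series the sum was 2537 CPM (PEP+/+) and 2581 CPM (PEP-/-) after IgE and 1501 and 1153 CPM after IgE DEX. In the lettered series it was 1301 and 1346 CPM after IgE and 735 and 626 CPM after IgE DEX. Each series thus had a lower sum with DEX in each genotype, whereas the lettered IgE samples overlapped the numbered IgE DEX samples.

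Fdps, which makes farnesyl diphosphate (ENSMUSG00000059743, chr3:89093588-89101959), had the lowest adjusted p of the enzymes in the main test. It was at 154 and 125 CPM in PEP+/+ and 166 and 115 CPM in PEP-/- after IgE, with the numbered sample first in each pair. After IgE DEX it was at 67.2 and 40.9 CPM in PEP+/+ and 55.2 and 30.4 CPM in PEP-/-. The groups did not overlap, and the log2 fold change was -1.54 ± 0.26 (SE, adjusted p = 0.00347, edgeR with Benjamini-Hochberg adjustment). Its transcript is near-identical to stretches of 6 other genes, 3 of them in the count tables, and it overlaps Gm43738 on its own strand over 1124 bases, so its level is uncertain.

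Dhcr7, the reductase of the last step to cholesterol (ENSMUSG00000058454, chr7:143823145-143848410), has no such copy. It was at 70.7 and 50.7 CPM in PEP+/+ and 80.3 and 58.6 CPM in PEP-/- after IgE, and at 31.6 and 24.1 CPM and 29.8 and 18.4 CPM after IgE DEX. Again the groups did not overlap, and Dhcr7 fell by 1.32 on the log2 scale (SE 0.27, adjusted p = 0.00893). Fdft1, the squalene synthase, was at 49.5 to 90.8 CPM after IgE and 22.9 to 46.2 CPM after IgE DEX (log2 fold change -1.07 ± 0.28, adjusted p = 0.0318). A near-identical stretch of Gm6781 covers 33.7% of its transcript, which makes its level uncertain too.

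The other enzymes that fell in sensitized cells were Mvk, Pmvk and Tm7sf2. Mvk, which phosphorylates mevalonate, was at 44.2 to 57.1 CPM after IgE and 25.5 to 39.5 CPM after IgE DEX (-0.69 ± 0.18, adjusted p = 0.0382). Pmvk, the next kinase, was at 17.5 to 24.4 and 11.5 to 14.2 CPM (-0.72 ± 0.19, adjusted p = 0.0354). Tm7sf2 was at 14.9 to 16.5 and 7.73 to 10.8 CPM (-0.81 ± 0.15, adjusted p = 0.00651), and 532 of its exon bases are shared with Vps51 on the same strand. None of the 3 had overlapping groups.

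Hmgcs1, Idi1, Sqle and Cyp51 differed by about as much between the series as with DEX, and they did not pass the main test. Hmgcs1 was at 423 and 150 CPM in PEP+/+ and 469 and 185 CPM in PEP-/- after IgE, and at 205 and 80.8 CPM and 185 and 79.3 CPM after IgE DEX. Within each series and genotype it was lower with DEX, by 0.89 to 1.34 on the log2 scale. The main test gave -1.15 ± 0.51 (adjusted p = 0.243) and the block -1.13 (adjusted p = 5.71e-06). Idi1 (-1.07, adjusted p = 9.84e-07), the squalene epoxidase Sqle (-1.32, 2.28e-06) and Cyp51 (-1.08, 6.72e-06) also passed with the block, with main adjusted p of 0.381, 0.124 and 0.179. All 4 passed too when no filter on low counts was applied (adjusted p from 3.52e-08 for Sqle to 1.78e-05 for Idi1), and Sqle passed in DESeq2 (0.0372). Hsd17b7 had the lowest value with the block, -1.75 (adjusted p = 1.82e-06), on 25 to 507 counts per sample. Nsdhl, a sterol dehydrogenase of the removal of methyl groups, passed neither test, at 48.2 to 95.0 CPM after IgE and 52.0 to 92.6 CPM after IgE DEX (0.0015 ± 0.35 on the log2 scale in the main test and 0.0096 with the block).

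**Figure D2:**
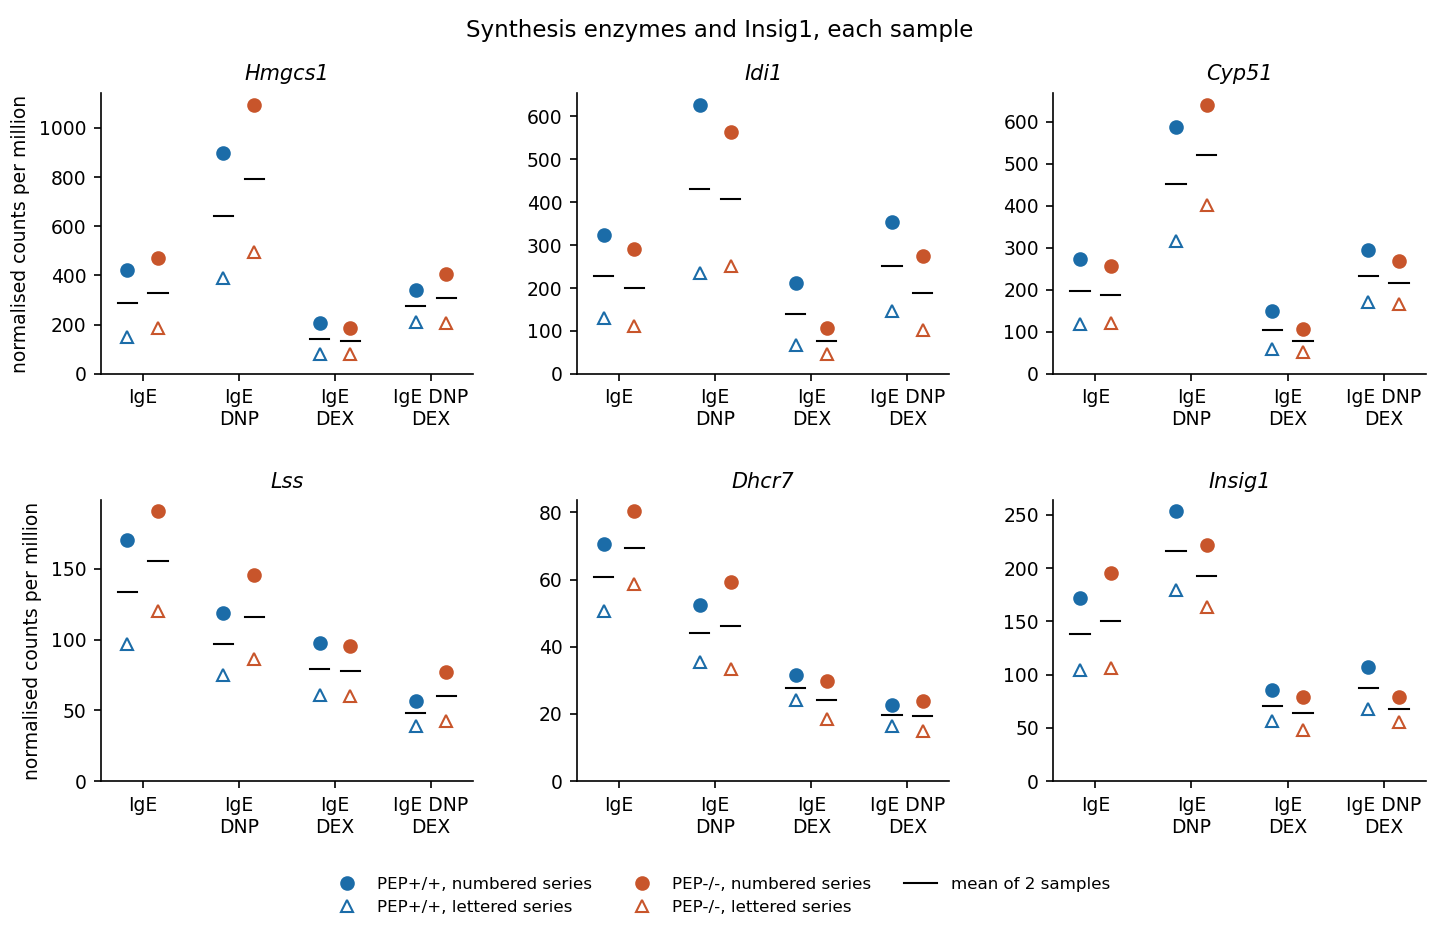
CPM (y axis, from 0) of 5 synthesis enzymes and Insig1 in each sample by treatment (x axis); colours, symbols and bars are as in the plot of the summed enzymes. Within a genotype and series each of the 6 genes is lower in the DEX sample than in the sample without DEX, and the numbered samples lie above the lettered ones; Hmgcs1, Idi1 and Cyp51 are higher and Lss and Dhcr7 lower after IgE DNP than after IgE.

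Among the control genes, Insig1, a target and a brake of the SREBPs, was at 172 and 104 CPM in PEP+/+ and 195 and 106 CPM in PEP-/- after IgE. With DEX it was at 85.1 and 56.1 CPM and at 78.9 and 48.4 CPM. It fell by 1.10 on the log2 scale (SE 0.29, adjusted p = 0.0329), and a stretch of 7.01% of its transcript is near-identical to Gm37784. Srebf1, which encodes the SREBP best known for fatty acid genes, fell by 0.52 (SE 0.14, adjusted p = 0.0414), from 132 to 161 CPM after IgE to 88.4 to 116 CPM after IgE DEX. This call was lost when low counts were not filtered (adjusted p = 0.129) and with only the conditions compared (0.0846). Fitting only the conditions compared also ended the calls of Pmvk (0.0644), Fdft1 (0.1) and Insig1 (0.0791). Srebf2, which encodes the SREBP best known for cholesterol genes, was at 224 to 386 and 173 to 299 CPM, which passed with the block (-0.44, adjusted p = 0.00635 against 0.464). Insig2 (0.02 ± 0.19) and Scap (0.02 ± 0.17), which senses sterols, did not pass either test.

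The transport genes differed among themselves. Abca1, which loads cholesterol onto apolipoproteins outside the cell (ENSMUSG00000015243, chr4:53030787-53159895), was at 3.82 and 2.00 CPM in PEP+/+ and 12.7 and 4.58 CPM in PEP-/- after IgE. After IgE DEX it was at 16.9 and 18.3 CPM and at 38.8 and 30.0 CPM, above every IgE sample. It rose by 2.30 ± 0.35 on the log2 scale (adjusted p = 0.00163). Npc1, the membrane protein of lysosomal cholesterol export, was at 53.7 to 69.7 CPM after IgE and 96.2 to 132 CPM after IgE DEX (0.82 ± 0.16, adjusted p = 0.00655). Its partner Npc2 was at 449 to 611 and 568 to 725 CPM (0.27 ± 0.14, adjusted p = 0.348). Abcg1, the other exporter, was lower rather than higher, at 16.4 to 37.0 and 8.50 to 25.9 CPM, which passed with the block (-0.60, adjusted p = 0.0127 against 0.479). Stard4, a sterol carrier of the cytosol, also passed with the block (-0.72, adjusted p = 0.000112 against 0.597).

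In activated cells (IgE DNP DEX against IgE DNP) 8 of the 28 genes passed the test, 7 lower and 1 higher, against 10.7% of all genes tested, 4.99% lower and 5.67% higher. With the block 23 passed, 21 lower and 2 higher, against 33.3% of all genes, 17.4% lower and 15.9% higher. Of the 18 enzymes, 5 fell in the main test and 17 with the block, and all 4 differences within a genotype and series were below 0 for 16 of the 18, against 23.1% of all genes. The median log2 fold change of the enzymes was -0.94, against -0.01 over all genes. This comparison shares no sample with that in sensitized cells, although the genotypes and series are the same.

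Fdps was at 158 and 165 CPM in PEP+/+ and 180 and 138 CPM in PEP-/- after IgE DNP, and at 83.6 and 52.8 CPM and 55.9 and 34.4 CPM after IgE DNP DEX (-1.53 ± 0.26, adjusted p = 0.00364). Insig1 was at 253 and 179 CPM and 222 and 163 CPM, and with DEX at 107 and 67.5 CPM and 78.8 and 56.0 CPM (-1.41 ± 0.29, adjusted p = 0.00943). In both genes the groups did not overlap, and these were the 2 genes whose call in activated cells was kept in all 16 fits with a sample left out.

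Hsd17b7 had the lowest value, with 47.9 and 15.6 CPM in PEP+/+ and 39.8 and 17.6 CPM in PEP-/- after IgE DNP and 8.72 and 5.75 CPM and 7.98 and 2.66 CPM after IgE DNP DEX (-2.28 ± 0.60, adjusted p = 0.0334). Dhcr7 was at 33.4 to 59.2 CPM and 14.8 to 24.0 CPM (-1.21 ± 0.27, adjusted p = 0.015). Fdft1 (-1.22 ± 0.28, adjusted p = 0.0168), Pmvk (-0.73 ± 0.19, 0.0312) and Srebf1 (-0.59 ± 0.14, 0.023) fell as well, each without overlap of the groups. The Srebf1 call was lost when low counts were not filtered (adjusted p = 0.057) and with only the conditions compared (0.0848), as was that of Pmvk with only the conditions compared (0.107). Abca1 was at 2.27 and 1.91 CPM in PEP+/+ and 6.07 and 4.57 CPM in PEP-/- after IgE DNP, and at 5.08 and 9.99 CPM and 18.6 and 11.9 CPM with DEX. It rose by 1.69 ± 0.36 (adjusted p = 0.0117), though the highest PEP-/- sample without DEX lay above the lowest PEP+/+ sample with DEX. Npc1 did not pass in activated cells (0.31 ± 0.16, adjusted p = 0.27), and Npc2 passed with the block (0.36, adjusted p = 0.0142 against 0.135).

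**Figure D3:**
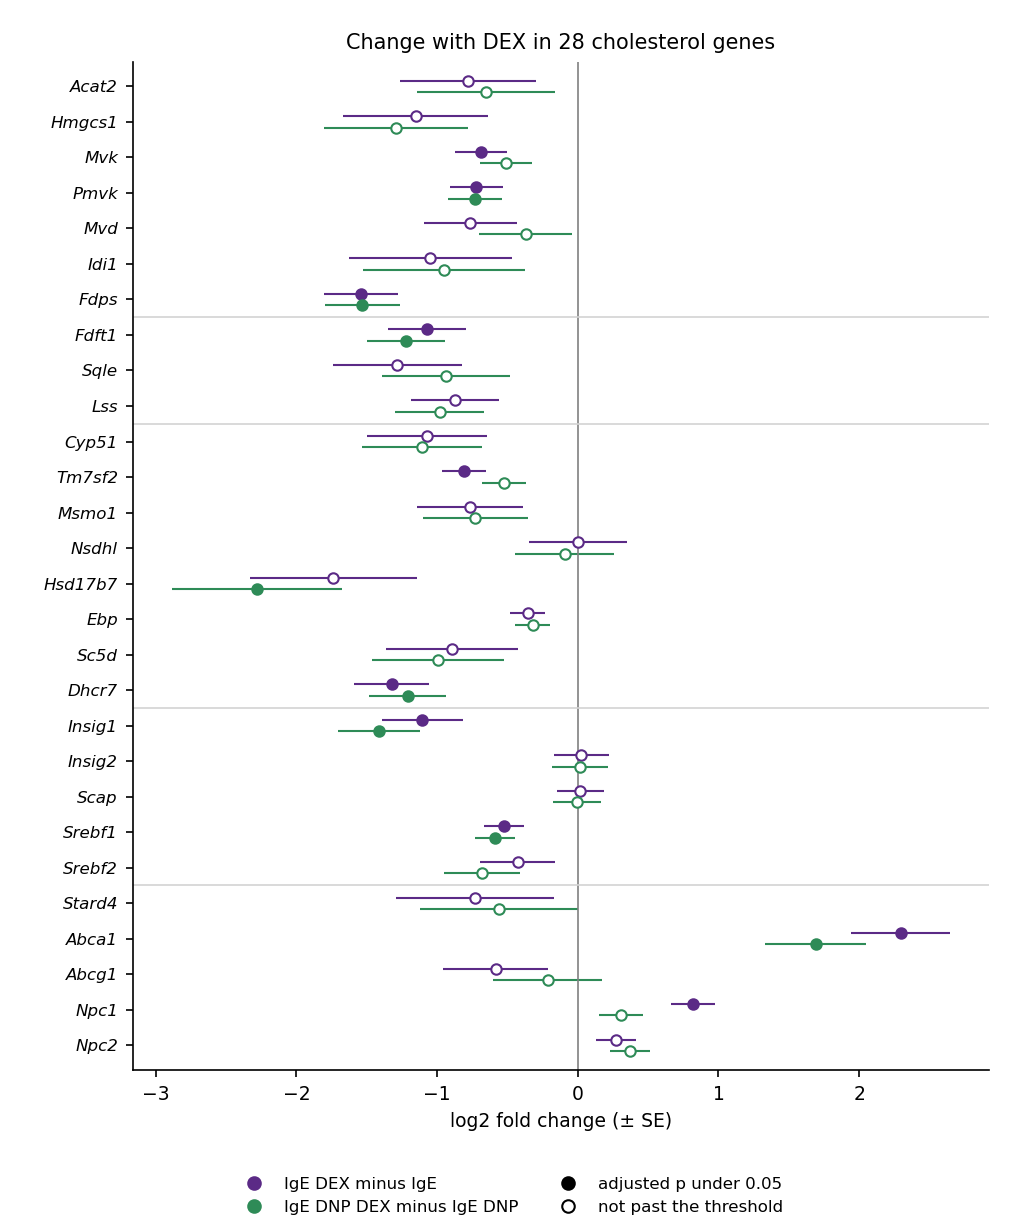
Log2 fold change with DEX (x axis, bars ± SE) of the 28 genes (y axis, in order of their role with grey lines between roles) in sensitized cells (purple) and activated cells (green), each over 4 samples against 4; filled points passed the adjusted p threshold of 0.05. All enzymes but Nsdhl lie left of 0 in both comparisons, Insig2 and Scap lie at 0, and Abca1, Npc1 and Npc2 lie right of it.

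After DNP, enzymes of the pathway lay on both sides of 0, and no enzyme passed the main test. In sensitized cells given DNP (IgE DNP against IgE) 1 of the 28 genes, Abcg1, passed the main test, against 16.7% of all genes tested, 9.07% higher and 7.58% lower. With the series as a block 16 passed, 10 higher and 6 lower, against 37.9% of all genes, 18.6% higher and 19.3% lower, so the share of these genes called was below the background in the main test and above it with the block. Without a filter on low counts 8 passed, against 1351 higher and 963 lower of the 23136 genes then tested. Among the 18 enzymes all 4 differences within a genotype and series were above 0 for 12 and below 0 for 5, against 29.8% and 30.0% of all genes. This comparison shares the IgE samples with the DEX comparison in sensitized cells and the IgE DNP samples with that in activated cells.

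Cyp51 was the enzyme nearest to the threshold. It was at 274 and 118 CPM in PEP+/+ and 257 and 120 CPM in PEP-/- after IgE, and at 588 and 315 CPM and 639 and 401 CPM after IgE DNP, so that the groups did not overlap. The log2 fold change was 1.33 ± 0.43 in the main test (adjusted p = 0.0563), or 1.39 under the block fit (3.31e-07). Hmgcs1 was at 423 and 150 CPM and 469 and 185 CPM after IgE and at 896 and 388 CPM and 1091 and 497 CPM after IgE DNP, which gave 1.27 with the block (adjusted p = 1.17e-06 against 0.144). Idi1 (0.98, adjusted p = 1.43e-06), Msmo1, a methylsterol monooxygenase (0.85, 1.1e-05), Sqle (0.63, 0.00103), the sterol desaturase Sc5d (0.62, 0.000172), Hsd17b7 (0.61, 0.00457) and Fdft1 (0.32, 0.0352) rose with the block and not in the main test, as did Srebf2 (0.57, 0.000671) and Insig1 (0.54, 0.000292).

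Other enzymes of the pathway were lower after DNP. Lss, the lanosterol synthase (ENSMUSG00000033105, chr10:76531588-76557138), was at 170 and 96.9 CPM in PEP+/+ and 191 and 120 CPM in PEP-/- after IgE and at 119 and 75.2 CPM and 146 and 85.96 CPM after IgE DNP. Each sample was lower than its partner of the same genotype and series, and the fold change was -0.44 in both fits (adjusted p = 0.000637 with the block and 0.427 without). Dhcr7 (-0.55 with the block, adjusted p = 0.000309), Mvk (-0.39, 0.0059), Acat2, the thiolase of the first step (-0.71, 0.000223), and Mvd, the mevalonate diphosphate decarboxylase (-0.31, 0.0429), fell with the block, with main adjusted p of 0.234, 0.21, 0.465 and 0.596. Acat2 shares 65.6% of its transcript with Acat3 at up to 97.7% identity, so its level is uncertain.

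Abcg1 was at 26.2 and 16.4 CPM in PEP+/+ and 37.0 and 16.6 CPM in PEP-/- after IgE, and at 9.74 and 6.19 CPM and 13.6 and 9.47 CPM after IgE DNP. It fell by 1.31 on the log2 scale (SE 0.38, adjusted p = 0.0371), and its groups did not overlap. Leaving out 1 sample kept this call in 8 of 16 fits, with adjusted p up to 0.15. Abca1 had a value of -0.59 (SE 0.36, adjusted p = 0.352) and was lower in all 4 differences, the smallest of which was -0.0027.

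The values for DNP depend on the scaling. With library totals in place of edgeR's TMM scaling (trimmed mean of M values) the median of all genes moved to -0.34 after DNP in sensitized cells and to -0.29 under DEX, and the calls over all genes went from 1207 higher and 1009 lower to 733 higher and 2733 lower. Under that scaling Fdps, Fdft1, Nsdhl, Ebp, Srebf1, Npc1 and Npc2 changed sign after DNP, whereas Hmgcs1, Idi1, Cyp51, Msmo1, Sqle, Hsd17b7, Sc5d, Srebf2 and Insig1 stayed above 0.

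Under DEX, DNP was tested again (IgE DNP DEX against IgE DEX, which shares samples with each of the DEX comparisons). The test passed for 1 of the 28 genes, Abca1, which was lower, against 12.6% of all genes, 7.19% higher and 5.42% lower. With the block 12 passed, 7 higher and 5 lower, against 37.6% of all genes, 18.4% higher and 19.2% lower, a share near the background. Cyp51 was at 151 and 60.4 CPM in PEP+/+ and 107 and 51.3 CPM in PEP-/- after IgE DEX and at 296 and 170 CPM and 269 and 166 CPM after IgE DNP DEX (1.37 with the block, adjusted p = 7.44e-07 against 0.0749). Hmgcs1 (1.17, adjusted p = 4.15e-06), Idi1 (1.09, 8.97e-07), Sqle (1.04, 2.32e-05), Msmo1 (0.88, 1.23e-05), Sc5d (0.55, 0.000774) and Srebf2 (0.34, 0.0219) rose with the block, while Lss (-0.55, 0.00016), Dhcr7 (-0.41, 0.00459), Acat2 (-0.53, 0.00344) and Abcg1 (-0.85, 0.0017) fell. Abca1 was at 16.9 and 18.3 CPM in PEP+/+ and 38.8 and 30.0 CPM in PEP-/- after IgE DEX and at 5.08 and 9.99 CPM and 18.6 and 11.9 CPM after IgE DNP DEX. It fell by 1.19 on the log2 scale (SE 0.34, adjusted p = 0.0402), with 1 IgE DNP DEX sample above 2 of the IgE DEX samples, and leaving out 1 sample kept the call in 5 of 16 fits.

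**Figure D4:**
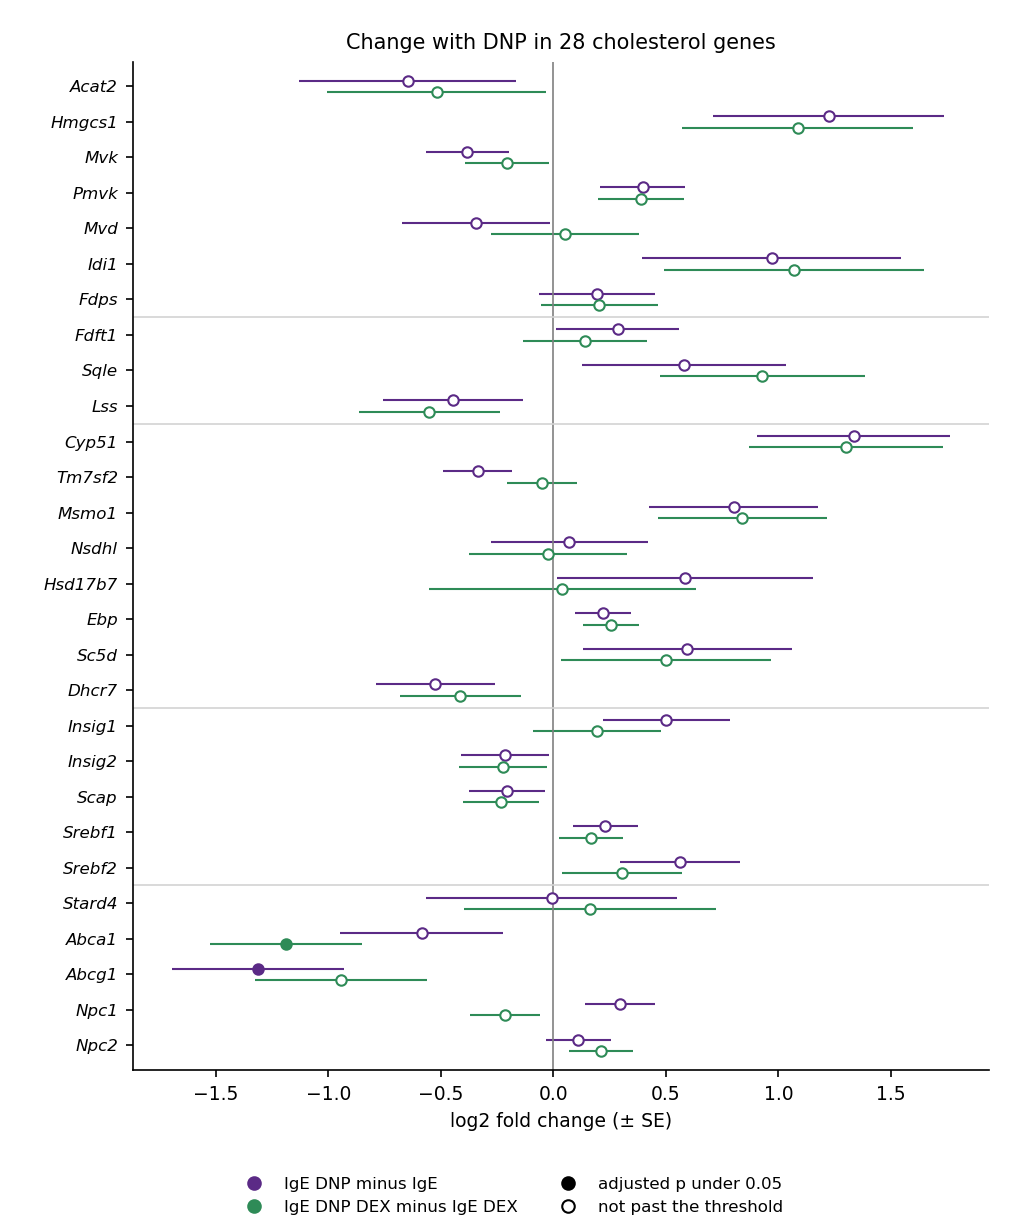
Log2 fold change with DNP (x axis, bars ± SE) of the 28 genes (y axis, in order of role) without DEX (purple) and with DEX (green), each over 4 samples against 4; filled points passed the adjusted p threshold of 0.05. Hmgcs1, Idi1, Sqle, Cyp51, Msmo1 and Sc5d lie right of 0 and Acat2, Mvk, Lss, Dhcr7 and Abcg1 left of it in both comparisons; the filled points are Abcg1 without DEX and Abca1 with DEX.

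The difference between the DNP responses with and without DEX, tested as an interaction, passed for 0 of the 28 genes in edgeR, in DESeq2 and with the block, against 0.331% of all genes in edgeR and 1.57% with the block. The unadjusted p was under 0.05 for 1 gene, Npc1 (-0.51 ± 0.22, unadjusted p = 0.0401 in edgeR), whose DNP response was 0.30 without DEX and -0.21 with it. For Cyp51 the interaction was -0.04 ± 0.60, for Hmgcs1 -0.14 ± 0.72 and for Lss -0.11 ± 0.44. Their DNP responses in sensitized cells were 1.33, 1.22 and -0.44 in that fit. With the block the interactions were -0.02 ± 0.16, -0.10 ± 0.17 and -0.11 ± 0.12, beside DNP responses of 1.39, 1.27 and -0.44. With the block 4 of the 28 genes had an unadjusted p under 0.05 for the interaction.

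The cells given DNP and DEX can be set beside those with IgE alone. The summed enzymes were at 2079 and 1223 CPM in PEP+/+ and 1886 and 1086 CPM in PEP-/- there, below the 2537 and 1301 CPM and 2581 and 1346 CPM of cells with IgE alone in every genotype and series. Lss and Dhcr7, which were lower with either agent, were lowest with both, Lss at 56.9 and 39.2 CPM in PEP+/+ and 77.3 and 42.5 CPM in PEP-/- against 170 and 96.9 CPM and 191 and 120 CPM after IgE. Cyp51, higher with DNP and lower with DEX, was at 296 and 170 CPM and 269 and 166 CPM against 274 and 118 CPM and 257 and 120 CPM. The comparison of IgE DNP DEX with IgE was not tested.

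**Figure D5:**
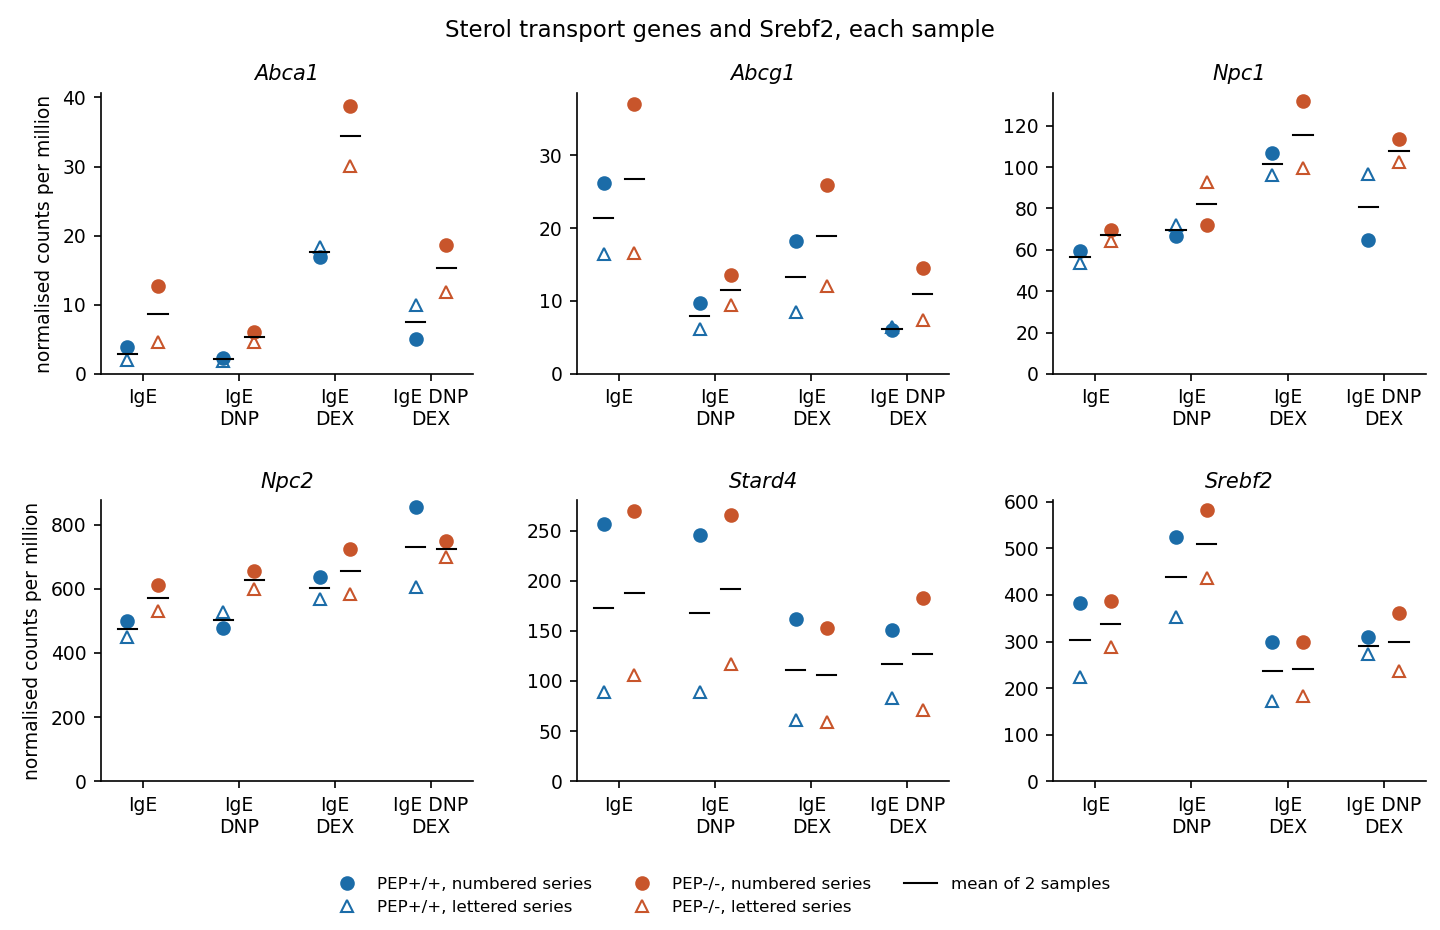
CPM (y axis, from 0) of the 5 sterol transport genes and Srebf2 in each sample by treatment (x axis); colours, symbols and bars are as in the plot of the summed enzymes. Abca1 and Npc1 are higher after IgE DEX than after IgE in every sample, Abcg1 is lower after IgE DNP than after IgE, and within each treatment and series Abca1, Abcg1 and Npc1 are higher in PEP-/- than in PEP+/+.

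With loss of PEP, Abca1 was the only gene of the 28 that passed the main test. Averaged over the 4 treatments (PEP-/- against PEP+/+, 8 samples against 8) this was 1 of 28, higher, against 1.59% of all genes, 0.428% higher and 1.16% lower. With the block 5 passed, 3 higher and 2 lower, against 17.4%, 7.72% higher and 9.64% lower, so that the share was near the background. Abca1 had 1.91 to 18.3 CPM in PEP+/+ and 4.57 to 38.8 CPM in PEP-/-, and it was higher in PEP-/- in 8 of 8 pairs of the same treatment and series. The log2 fold change was 1.21 ± 0.25 (adjusted p = 0.0356), or 1.16 under the block fit (0.00153). Leaving out 1 sample kept the call in 3 of 16 fits, with values of 0.99 to 1.36 and adjusted p up to 0.103.

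Abcg1 and Npc1 were also higher in PEP-/- in 8 of 8 pairs, against 6.38% of all genes. Abcg1 had 5.99 to 26.2 CPM in PEP+/+ and 7.33 to 37.0 CPM in PEP-/- and passed with the block (0.50, adjusted p = 0.0119 against 0.407). Npc1 passed neither test (0.27 ± 0.11, adjusted p = 0.278, and 0.0626 once blocked). Among the enzymes the block called Lss higher (0.18, adjusted p = 0.0437) and Idi1 (-0.36, 0.00209) and Hsd17b7 (-0.57, 0.00436) lower in PEP-/-. The macrophage and monocyte markers, which include cells rich in Abca1, summed to 5.51 to 14.6 CPM in PEP+/+ and 9.87 to 14.2 CPM in PEP-/-. Of these markers, C1qa was at 0 in every sample, Mrc1 and Msr1 were at 0 in 15 of 16 and Csf1r was at no more than 1.05 CPM. C1qb, Marco, Ly6c2 and C1qc reached 0.2855, 0.2034, 1.172 and 2.083 CPM. By contrast Lyz2 was at 3.123 to 11.01 CPM and Adgre1 at 1.047 to 6.385 CPM, both above 0 in all 16 samples. The part of the macrophage and monocyte markers in the Abca1 result was not tested.

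Within single treatments, with 2 samples against 2, 0 of the 28 genes passed the main test of PEP loss in edgeR or DESeq2, with an edgeR unadjusted p under 0.05 for 1 gene after IgE and 1 after IgE DNP and a background of 0.00752% of all genes in each treatment. With the block 2 passed, Idi1 (-0.79, adjusted p = 0.026) and Hsd17b7 (-1.22, adjusted p = 0.0491), both lower in PEP-/- after IgE DEX, where 0.564% of all genes passed. Idi1 was there at 212 and 67.1 CPM in PEP+/+ and 108 and 45.3 CPM in PEP-/-, and Hsd17b7 at 14.3 and 4.42 CPM and 5.13 and 2.54 CPM. In both genes the numbered PEP-/- sample lay above the lettered PEP+/+ sample, so the genotypes were apart only within a series. The genotype difference of the DEX response passed for 0 of the 28 genes in sensitized and in activated cells, in edgeR (0 with an unadjusted p under 0.05), with the block and in DESeq2, and for 0.0% of the 13305 genes in edgeR with and without the block. Its estimate was below 0 for 18 of 18 enzymes in sensitized cells, with a median of -0.35, and for 17 of 18 in activated cells, with a median of -0.29, against medians of 0.00 and 0.02 over all genes. The enzymes share samples and series, so these counts are a description only.

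Genes around the pathway were read from 3 lists. Of 13 fatty acid synthesis genes, 3 passed with DEX in sensitized cells (1 higher, 2 lower) and 4 in activated cells (2 higher, 2 lower), against 9.37% and 10.7% of all genes. With the block 12 passed (3 higher, 9 lower) and 10 (2 higher, 8 lower), against 26.7% and 33.3%. The acetyl-CoA synthetase Acss2 (-1.20 ± 0.26, adjusted p = 0.0116, and -1.27 ± 0.26, 0.00902) and the malic enzyme Me1 (-1.12 ± 0.28, 0.0296, and -1.11 ± 0.28, 0.0293) fell in both, while the desaturase Fads1 rose in both (1.14 ± 0.16, 0.000837, and 0.99 ± 0.16, 0.00222) and the elongase Elovl5 rose in activated cells (1.04 ± 0.27, 0.0309). The list had a median of -0.68 and -0.73 in the 2 comparisons and 0 calls with DNP, where 0 of 13 without DEX and 1 of 13 with it had an unadjusted p under 0.05 and DESeq2 called 0 and 1. With the block 5 passed with DNP in sensitized cells and 6 under DEX, against 37.9% and 37.6% of all genes. In the main test 16.7% and 12.6% of all genes passed with DNP. Of 15 other sterol and isoprenoid genes 0 passed with DEX in sensitized cells, where 3 had an unadjusted p under 0.05 and DESeq2 called 1, and 1 in activated cells, the acyltransferase Lpcat3 (-0.73 ± 0.21, adjusted p = 0.0449). With the block 6 passed (1 higher, 5 lower) and 7 (1 higher, 6 lower), against 26.7% and 33.3% of all genes.

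With DNP in sensitized cells, 3 of these 15 passed, and 5 with the block, against 16.7% and 37.9% of all genes. Soat1, which esterifies cholesterol for storage, rose (0.70 ± 0.13, adjusted p = 0.00352), as did the sterol-binding Stard3 (0.59 ± 0.15, 0.0213). Mylip, a ubiquitin ligase of lipoprotein receptors and a liver X receptor target, fell (-1.39 ± 0.26, adjusted p = 0.00363). Under DEX, Soat1 (0.52 ± 0.13, 0.0237) and the lipoprotein receptor Vldlr (1.87 ± 0.45, 0.0209) rose with DNP, and 4 of the 15 passed with the block. The shares of all genes there were 12.6% in the main test and 37.6% with the block. Vldlr had only 2 to 11 counts per sample after IgE DEX and 5 to 27 after IgE DNP DEX, so its value rests on few reads. Of 12 genes of SREBP processing and sterol-sensing degradation, Sec24a rose with DEX in sensitized cells (0.87 ± 0.16, adjusted p = 0.00461) and Sec23a fell in activated cells (-1.14 ± 0.29, adjusted p = 0.0296), both coat proteins of the vesicles that leave the endoplasmic reticulum, and the list had 0 calls with DNP, where 1 and 3 of the 12 had an unadjusted p under 0.05 and DESeq2 called 0 and 1 without and with DEX. With the block the list had 5 calls with DNP in sensitized cells and 4 under DEX, against 37.9% and 37.6% of all genes. It had 4 and 8 block calls with DEX in sensitized and activated cells, against 26.7% and 33.3%.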

How the data were processed

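RNA of 16 mouse BMMC samples in 8 conditions of 2 replicates was sequenced with a stranded mRNA kit. The deposited values are raw counts of reads per Ensembl gene, 1 column per sample, which the authors made by aligning to GRCm38 with TopHat2 and counting with HTSeq, and no normalization was applied to them; the submitters' processing notes also name bcl2fastq and DESeq2, and the strand setting of the count is not given in the sources used here. GENCODE M21 named 37693 of 39179 genes (96.2%).

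The 5 rows of unassigned reads were left out. Genes passing edgeR's filterByExpr (minimum count 10) were fitted with edgeR 4.0.16 in R 4.3.3 (TMM scaling, quasi-likelihood test, 1 mean per condition over all 16 samples). A call was a Benjamini-Hochberg adjusted p under 0.05 over 13305 genes. The biological coefficient of variation was 0.312, and 0.133 with the series as a block. Samples of the same series deviated together from their condition means in all 28 pairs of conditions (correlation 0.453 to 0.799), so the numbers and letters were read as pairing the samples. CPM values used TMM-scaled library sizes, and differences within a genotype and series used log2 of CPM plus 0.5. Near-identical copies were searched with BLAST+ 2.17.0 (at least 95% identity over 100 bases). Alternatives were DESeq2 1.42.0, its size factors, library totals alone, other filters, only the conditions compared, the block, and each sample left out. The test was also run on simulated data, and no result given here draws on that run. All 28 genes are named, and beyond them only genes that check the labels or mark cell types, genes overlapping or resembling the 28, and genes past the threshold in 3 lists of related genes, at most 4 per list and comparison. The members and lists were chosen with earlier results of these data known.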

Additional observations from a re-analysis of the deposited data

Results flagged for a closer look

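For 2 of the 28 genes the response to DNP under DEX went up in every PEP+/+ pair of samples and down in every PEP-/- pair. The share of all genes with this pattern of signs is not given here, so the count is a description only. Mvd, the mevalonate diphosphate decarboxylase, had log2 differences of 0.17 and 0.17 in PEP+/+ and -0.05 and -0.08 in PEP-/-, and the difference between genotypes was -0.24. Nsdhl, the sterol dehydrogenase, had 0.02 and 0.05 in PEP+/+ and -0.08 and -0.07 in PEP-/-, a difference of -0.11. Tested as an interaction in edgeR, neither passed, with an adjusted p of 1.0 for each gene.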

How the results depend on the processing

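The number of the 28 genes called depended most on whether the series was a term in the model. With the block the count went from 1 to 16 after DNP in sensitized cells and from 10 to 24 with DEX in sensitized cells. It went from 8 to 23 with DEX in activated cells, 1 to 12 with DNP under DEX and 1 to 5 with PEP loss. Calls summed over the 4 treatment comparisons in each genotype, where a gene can count more than once, went from 5 to 121. The share of all genes beside that sum is not given here. Calls of PEP loss summed over the 4 treatments went from 0 to 2. No call of the main test was lost with the block. Without a filter on low counts the counts were 8, 20, 15 and 7 in the first 4 comparisons. Of the 23136 genes then tested, 1351 were called higher and 963 lower in the first comparison and 856 and 679 in the second. The calls were 865 and 923 in the third and 1135 and 745 in the fourth. Library totals alone gave 5 calls after DNP in sensitized cells, and a minimum of 10 counts in every sample gave 2. Over all genes library totals called 733 higher and 2733 lower of 13305, and that minimum called 1057 higher and 955 lower of 10495. DESeq2 gave 2 after DNP in sensitized cells, where it called 1420 higher and 1211 lower of 14925 genes. It gave 2 with DNP under DEX, where it called 1266 higher and 963 lower of 14060 genes. Summed over the treatment comparisons in each genotype DESeq2 gave 20, and the share of all genes beside that sum is not given either. Fitting only the conditions compared gave 6 calls with DEX in sensitized cells, against 617 higher and 359 lower of 12914 genes. The cause of these shifts was not tested. With library totals the calls over all genes went from 957 higher and 721 lower to 628 higher and 1947 lower with DNP under DEX, and from 718 and 529 to 587 and 670 with DEX in sensitized cells. No called value changed sign under any alternative.

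Leaving out 1 sample gave 0 to 2 calls after DNP in sensitized cells, 5 to 10 with DEX in sensitized cells, 3 to 8 with DEX in activated cells, 0 to 1 with DNP under DEX, 0 to 0 for the interaction and 0 to 1 for PEP loss. The count with DEX in sensitized cells was 5 without the PEP+/+ IgE DEX replicate 2, the PEP-/- IgE DEX replicate 2, the PEP+/+ IgE replicate 1 or the PEP-/- IgE replicate 1. With DEX in activated cells it was 3 without the PEP-/- IgE DNP DEX replicate 2 or the PEP-/- IgE DNP replicate 1, 4 without the PEP+/+ IgE DNP replicate 1 and 5 without the PEP+/+ IgE DNP DEX replicate 2. With DEX in sensitized cells Fdps, Tm7sf2, Dhcr7, Abca1 and Npc1 kept their call in 16 of 16 fits, Fdft1 and Insig1 in 12, Pmvk in 9, Mvk in 8 and Srebf1 in 7. With 17 to 748 counts per sample, Abca1 rests on the fewest reads of the genes called in more than 1 comparison.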
